A study of Homo sapiens with 8 samples.

Results

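Bleomycin-induced senescence was described here in cells whose YAP transgene had not been induced, as the difference between senescent and proliferating libraries that received no doxycycline. The groups come from the labels: 2 proliferating and 2 senescent libraries, 4 of the 8 in the series, and every gene with enough counts to be tested, 17155 of 54628. The cells are IMR90-hTERT, a human lung fibroblast line immortalised with telomerase, and all of them carry pInducer20 with an N-terminally Flag tagged YAP5SA, an active form of the coactivator YAP that doxycycline switches on. The proliferating group is labelled untreated. The senescent group had 10 ug/ml of bleomycin for 24 h and was assessed 9 days later. A second pair of groups, proliferating and senescent cells of the same line with doxycycline at 1 ug/ml for 11 days, served for comparison. Cells were kept at 3% oxygen. All libraries come from a single telomerase-expressing line with an integrated vector, and the labels do not state whether the replicates of a group came from different cultures, so the p-values reflect a spread between libraries that may be technical.

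Bleomycin is a glycopeptide that cuts DNA through a bound metal ion. Lasting double-strand breaks keep the kinase ATM and the transcription factor p53 active, p53 raises the cyclin-dependent kinase inhibitor p21, the pocket proteins then hold E2F and MuvB target genes silent, and the cell leaves the cycle for good. A senescent fibroblast stays metabolically active, enlarges, and secretes cytokines, proteases and matrix, a mixed output driven largely by NF-kappaB and CEBP factors and often joined by a type I interferon response.

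Expression is in CPM (counts per 1e6 counts, with TMM factors applied to the library size), listed for replicate 1 and then replicate 2 of each group. Log2 changes and standard errors (SE) come from edgeR's quasi-likelihood fit, and a gene was called where its Benjamini-Hochberg adjusted p was under 0.05. Total counts ran from 35419680 to 39692162 in the 4 libraries. Gene positions and promoters are those of RefSeq for GRCh38.p14, the assembly that the submitters' processing notes call hg38. Pearson r of log2 CPM across genes was 0.993 between the proliferating replicates, 0.99 between the senescent ones and 0.942 to 0.944 across the states. YAP1, the endogenous gene together with any transgene reads, stood at 198 and 195 CPM in proliferating cells and 190.3 and 223 CPM in senescent cells, and it was not called (log2 change 0.07, SE 0.103, edgeR adjusted p = 0.560). TERT, the gene that the telomerase vector carries, fell from 199.5 and 177 CPM in proliferating cells to 35.6 and 49.01 CPM in senescent cells (log2 change -2.16, edgeR adjusted p = 0.0106), a call that was lost when proliferating replicate 1 or senescent replicate 1 was left out.

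The test called 59.2% of the genes, 5108 higher in senescent cells (29.8%) and 5047 lower (29.4%). These shares of all genes are the background for the counts of every list below. They depend on the test: against a 1.5-fold change 2249 were called higher and 2101 lower. Both counts also fell when any library of the groups compared was left out. A gene not called may still differ. Beyond 2-fold, 2075 were higher (12.1%) and 1764 lower (10.3%). The tails were unequal: 245 called genes rose by more than 4 on the log2 scale, and 37 fell by more than that. Of the genes tested, 211 had a state without any count. Their fitted size is uncertain, and the tail counts include such genes, SAA1 among them. A gene nearly absent from proliferating cells was tested only because another group had enough counts, so it could hardly be called lower. The median of all genes tested was 0.01 on the log2 scale and -0.16 when libraries were scaled by their total counts alone, which left 37.1% of the called genes higher in place of 50.3%. All changes below are relative to the TMM scaling, and a list's direction is said to flip where total counts reverse its median. The cells are a bulk sample, so a transcript made by fewer cells cannot be told apart from one made at a lower level in each cell.

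**Figure D1:**
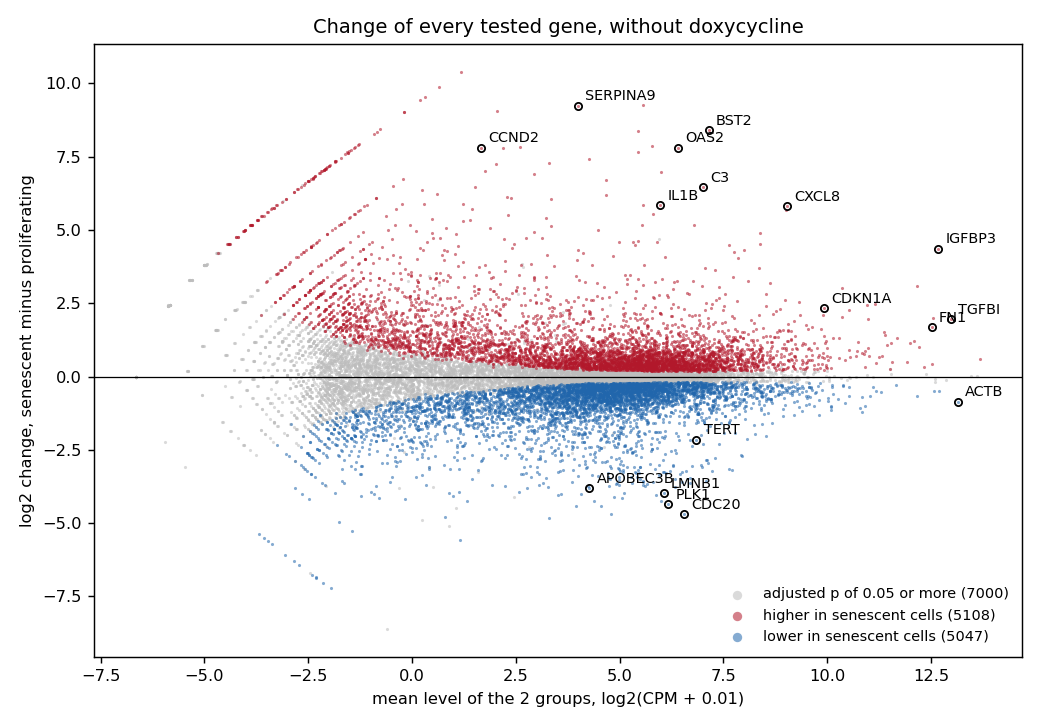
Fitted log2 change (senescent minus proliferating, without doxycycline) against the log2 of the mean CPM of the 4 libraries, with a small constant added. There is 1 point for each of the 17155 genes tested. The 5108 genes called higher and the 5047 called lower are coloured, and the upper tail reaches further from 0 than the lower one.

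The 12 genes of at least moderate abundance that rose most were BST2, OAS2, MX1, C3, IL1B, SERPING1, CXCL8, IFI6, CXCL10, PAPPA, ICAM1 and ANKRD1. By their known functions 5 of them are antiviral or interferon-induced (BST2, OAS2, MX1, IFI6, CXCL10), and C3 and SERPING1 belong to complement. The 12 that fell most were CDC20, TROAP, PIMREG, PLK1, KIF20A, NEK2, FAM83D, CDKN2C, UBE2C, AURKB, LMNB1 and APOBEC3B. Most of these 12 act in mitosis. CDC20, which activates the anaphase-promoting complex (chromosome 1, 43358981 to 43363203), fell from 183 and 178 CPM in proliferating cells to 6.16 and 7.78 CPM in senescent cells (log2 change -4.70, SE 0.114, edgeR adjusted p = 5.97e-14). BST2, which tethers budding viruses to the cell (chromosome 19, 17402939 to 17405630), rose from 0.635 and 1.03 CPM in proliferating cells to 323 and 243 CPM in senescent cells (log2 change 8.41, SE 0.227, edgeR adjusted p = 3.85e-10). In each of these 24 genes both senescent libraries lay on the same side of both proliferating ones, which the rule for choosing them required.

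**Figure D2:**
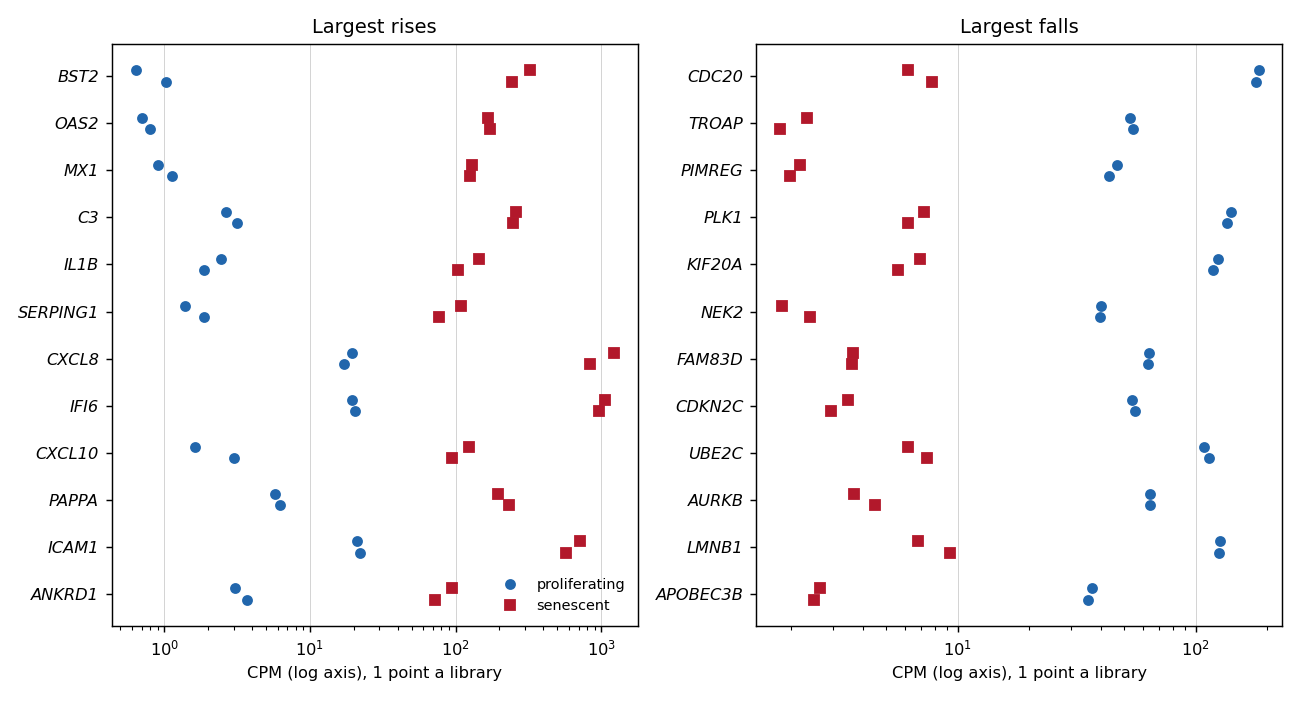
CPM on a log axis in each of the 4 libraries for the 12 genes that rose most and the 12 that fell most. Points are single libraries. The states are separated in all 24 genes because the rule asked for no overlap.

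Mitotic genes had the lowest median change of the 88 lists examined. Every one of the 37 mitotic kinases and spindle genes on the list was called lower, with a median log2 change of -3.26. PLK1, the kinase that drives mitotic entry and spindle assembly, fell from 140.3 and 135 CPM in proliferating cells to 7.22 and 6.202 CPM in senescent cells (log2 change -4.36, SE 0.0992, edgeR adjusted p = 3.22e-14). AURKB, the kinase of the chromosomal passenger complex, fell from 64.4 and 64.3 to 3.67 and 4.499 CPM. KIF20A, a kinesin of the midzone, fell from 124 and 118 to 6.97 and 5.62 CPM, and NEK2, a centrosome kinase, fell from 40.03 and 39.5 to 1.82 and 2.402 CPM. The smallest change on the list was that of BUB3 (log2 -0.84), a checkpoint protein. Centromere and kinetochore proteins moved the same way, 27 of 28 lower with a median of -2.45. CENPA, the histone variant that marks centromeres, fell from 28.4 and 30.1 to 1.43 and 1.34 CPM (log2 -4.40), and CENPT, which tethers the outer kinetochore to DNA, was not called (log2 0.08). Condensin and cohesin split by subunit: NCAPH of condensin fell from 57.4 and 56.5 to 4.48 and 4.71 CPM, while the cohesin ring protein SMC3 fell by less (log2 -0.68) and the cohesin loader NIPBL was not called (log2 -0.02). In all, 15 of 17 members of that list were lower and 1 was higher (0 with total counts).

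The promoters of these genes share short elements. The cell cycle homology region (CHR, letters TTTGAA), read by MuvB complexes, is known for repressing cell cycle genes in arrested cells. The CCAAT box (letters CCAAT) is read by NF-Y. Promoters were taken from RefSeq (GRCh38.p14) as windows of 300 bases around the annotated start, both strands were searched, and 22114 genes with a single start in that table gave the background. A CHR match was found in 18 of 26 mitotic promoters (69.2%) and in 16.02% of all promoters. A CCAAT match was found in 80.8% of the mitotic promoters and in 36.2% of all. Beyond 2-fold it was found for 48.9% of genes called lower and 33.8% of those called higher. Lists that mostly rose could hold it often too. It was found in 87.5% of 16 replication-dependent histone promoters and 75% of 20 promoters of the unfolded protein response and secretion. None of the strings searched in this work contains another. The bases just before the annotated start of 4 mitotic genes are printed to show how close together the elements lie. Capitals mark CHR and CCAAT matches on either strand.
PLK1, chr16:23678789-23678888, plus strand: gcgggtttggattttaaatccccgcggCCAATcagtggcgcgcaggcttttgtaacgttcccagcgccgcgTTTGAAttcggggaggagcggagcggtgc
CCNB2, chr15:59105006-59105145, plus strand: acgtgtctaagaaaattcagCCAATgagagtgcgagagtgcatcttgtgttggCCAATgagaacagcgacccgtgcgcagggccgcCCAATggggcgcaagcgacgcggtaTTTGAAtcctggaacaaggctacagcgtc
CDC20, chr1:43358871-43358980, plus strand: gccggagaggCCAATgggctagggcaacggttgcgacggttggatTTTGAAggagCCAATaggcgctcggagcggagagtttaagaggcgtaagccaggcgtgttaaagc
KIF4A, chrX:70290024-70290103, plus strand: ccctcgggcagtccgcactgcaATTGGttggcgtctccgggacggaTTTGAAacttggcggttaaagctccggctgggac
In PLK1 the CHR starts 29 bases before the annotated start and the CCAAT box 73 bases before it. CCNB2, which encodes cyclin B2, has its CHR at the same distance and 3 CCAAT boxes spaced along the stretch. A match is a string of letters and no measured binding.

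The engine of the cycle was lowered with it. Among cyclins, their kinases and the CDC25 phosphatases, 16 of 25 were lower and 6 higher (median -1.35). CCNB2 fell from 88.3 and 88.4 CPM in proliferating cells to 6.92 and 6.84 CPM in senescent cells (log2 -3.68). CCNA2, the S and G2 phase cyclin, fell from 149 and 148 to 12.01 and 14.3 CPM (log2 -3.50). PKMYT1, which holds CDK1 inactive, fell from 58.9 and 55.1 to 6.36 and 6.38 CPM. The D-type cyclins did not fall. CCND1, which drives passage out of G1, rose from 665 and 633 to 1615 and 1587 CPM (log2 1.30, edgeR adjusted p = 8.80e-09), and CCND3 was not called (log2 0.06). CCND2 had 2 counts in the proliferating libraries together and stood at 7.36 and 5.14 CPM in the senescent ones, a ratio of 255 (95% interval 70.1 to 2109.6). CDK6, a partner of the D-type cyclins, rose (log2 1.05) and CDK4 fell (log2 -1.29).

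Inhibitors of these kinases did not move as a block: 4 of 10 inhibitors and pocket proteins were higher and 5 lower. CDKN1A, the p53 target that encodes p21, rose from 325 and 323 CPM in proliferating cells to 1712 and 1531 CPM in senescent cells (log2 2.32, SE 0.0990, edgeR adjusted p = 1.92e-11). CDKN2B, which encodes p15, rose from 4.64 and 3.98 to 20.2 and 18.3 CPM, and CDKN2A, which encodes p16 and ARF, rose from 11.6 and 11.6 to 32.4 and 25.9 CPM. CDKN2C, which encodes p18, went down from 54.04 and 55.7 to 3.47 and 2.95 CPM (log2 -4.09) and was among the 12 largest falls. CDKN1B, which encodes p27, also fell (log2 -1.23). RB1 was not called (log2 -0.06), its relative RBL1 fell (log2 -2.08) and RBL2, the pocket protein of quiescent cells, rose (log2 0.79). Of the E2F and DREAM factors 12 of 17 were lower and 0 higher, or 1 higher with DESeq2's size factors. FOXM1, the activator of mitotic genes, fell from 165 and 169.5 to 12.3 and 15.1 CPM (log2 -3.61). E2F2 fell from 7.57 and 6.59 to 0.504 and 0.578 CPM, and E2F3 was not called (log2 0.20).

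DNA replication genes fell almost without exception. Of 40 tested, 39 were lower and 0 higher, with a median of -2.14. ORC3 of the origin recognition complex was the member not called (log2 -0.03). GINS2, a subunit of the replicative helicase, fell from 51.2 and 49.2 CPM in proliferating cells to 4.37 and 4.53 CPM in senescent cells (log2 -3.50, SE 0.119, edgeR adjusted p = 1.55e-12). CDT1, which loads that helicase at origins, fell from 41.6 and 40.3 to 3.58 and 4.32 CPM (log2 -3.38), and MCM2, part of the helicase ring, fell from 106 and 101 to 10.2 and 12.9 CPM. Their promoters hold another element: an E2F match (letters TTTNNCGC) was found in 18 of 27 replication promoters (66.7%) against 6.66% of all promoters, and a CHR match in 0 of them. In the mitotic promoters the E2F share was 11.5%, and among the genes tested it was 10.1%. The 3 stretches printed show E2F matches in capitals, on either strand, before the annotated start of replication genes. 
MCM6, chr2:135876444-135876603, minus strand: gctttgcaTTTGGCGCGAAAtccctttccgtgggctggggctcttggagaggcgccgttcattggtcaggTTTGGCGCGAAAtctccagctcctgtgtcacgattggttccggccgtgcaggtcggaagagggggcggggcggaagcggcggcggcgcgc
CDT1, chr16:88803709-88803788, plus strand: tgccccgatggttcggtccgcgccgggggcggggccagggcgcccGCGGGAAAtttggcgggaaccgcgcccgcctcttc
GINS2, chr16:85688955-85689034, minus strand: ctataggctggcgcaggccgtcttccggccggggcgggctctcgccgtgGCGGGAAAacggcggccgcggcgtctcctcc
MCM6 carries a pair of such elements, each matched on both strands, where CDT1 and GINS2 have 1 match close to the start.

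**Figure D3:**
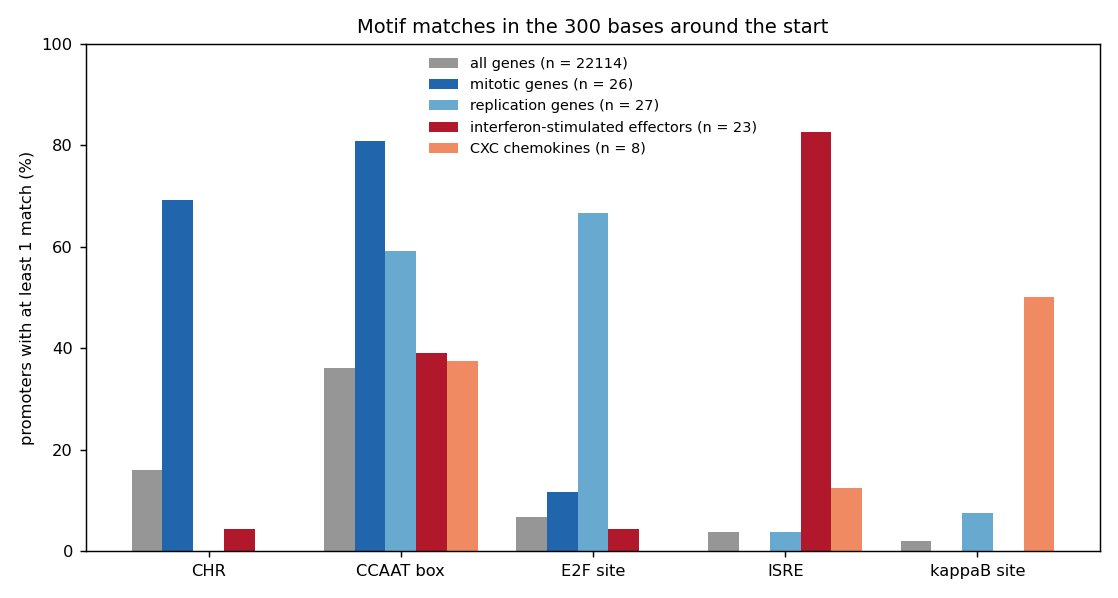
Share of promoters with a match to each element, in percent, as bars for mitotic genes, replication genes, interferon-stimulated effectors and CXC chemokines beside all 22114 promoters. Among these sets CHR and CCAAT matches are most frequent in the mitotic genes (69.2% and 80.8%), E2F matches in replication (66.7%), ISRE matches in the interferon-stimulated effectors (82.6%) and kappaB matches in CXC chemokines (50%).

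Supply and repair of DNA went down with its copying. For nucleotide synthesis 18 of 23 genes were lower. TK1, the thymidine kinase of S phase, fell from 194 and 187 CPM in proliferating cells to 14.4 and 16.3 CPM in senescent cells (log2 -3.63), and RRM2, the S-phase subunit of ribonucleotide reductase, fell from 428 and 433 to 56.6 and 74.1 CPM (log2 -2.72). A second subunit of that enzyme, RRM2B, which p53 induces, rose from 32.5 and 32.4 to 104 and 113 CPM (log2 1.74), as did SAMHD1, which breaks down deoxynucleotides, from 44.1 and 47.8 to 215 and 229.9 CPM (log2 2.28). For homologous recombination and the Fanconi pathway 30 of 33 were lower with a median of -2.03. FANCD2, the protein that is ubiquitinated at crosslinks, fell from 38.1 and 37.3 to 4.79 and 5.17 CPM. RAD50, which binds broken ends, was the member that rose (log2 0.47). End joining and damage signalling had 14 of 20 lower and 3 higher. There H2AX, the histone phosphorylated at breaks, fell from 174 and 177 to 20.6 and 16.8 CPM, whereas ATM, the kinase that phosphorylates it, rose (log2 0.58). Excision and mismatch repair had 7 higher and 10 lower of 24, or 4 higher and 15 lower with total counts. Its members that rose included the p53 targets POLH (log2 0.83), DDB2 (log2 0.57) and XPC (log2 0.35), the last of which was not called with total counts.

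Chromatin proteins of dividing cells fell, and polyadenylated histone transcripts rose. LMNB1, which encodes lamin B1 and is lost from senescent nuclei, fell from 126 and 125 CPM in proliferating cells to 6.805 and 9.27 CPM in senescent cells (log2 -3.97, SE 0.115, edgeR adjusted p = 3.35e-13). HMGB2, a DNA-bending protein, fell from 256 and 242 to 20.4 and 21.5 CPM, UHRF1, which guides DNA methylation, fell from 137 and 132 to 13.4 and 15.4 CPM, and EZH2, the Polycomb methyltransferase, fell from 45.5 and 45.4 to 4.901 and 7.6002 CPM. Of 42 lamina, HMG and silencing genes 31 were lower (median -0.91) and 3 higher, and with total counts alone 0 were higher. Without proliferating replicate 2 or senescent replicate 1, 1 was higher. Histone chaperones showed 11 of 15 lower, led by ASF1B (log2 -2.79) and CHAF1B (log2 -2.45). Variant histones had 7 of 9 lower, among them H2AZ1, from 438 and 433 to 103 and 95.3 CPM. Replication-dependent histone mRNAs normally end in a stem-loop and no poly(A) tail, so a poly(A) library sees few of them: 20 of 52 could be tested. Of those 15 were higher and 3 lower (median 1.82). H2BC12 rose from 23.02 and 24.1 to 111 and 97.2 CPM (log2 2.15), H2BC5 rose from 1.98 and 2.05 to 17.4 and 15.99 CPM and H2BC4 rose from 2.73 and 2.43 to 18.1 and 16.6 CPM. Histone genes of a cluster are near-copies of each other, so single values are uncertain.

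Targets of p53 rose far more often than they fell. Of 32 p53 targets 26 were higher and 2 lower (median 0.81), or 1 lower without proliferating replicate 1, proliferating replicate 2 or senescent replicate 2 and 4 lower with total counts. BTG2, an antiproliferative factor, rose from 2.29 and 2.98 CPM in proliferating cells to 30.5 and 26.4 CPM in senescent cells (log2 3.43, SE 0.143, edgeR adjusted p = 1.49e-11). GDF15, a secreted stress cytokine, rose from 7.49 and 8.32 to 92.3 and 67.03 CPM (log2 3.33), and SPATA18, which acts in mitochondrial quality control, rose from 5.05 and 5.44 to 21.6 and 23.3 CPM. MDM2, the ligase that degrades p53, rose by less, from 91.5 and 92.04 to 149 and 179 CPM (log2 0.84). TP53I3 fell (log2 -0.89), and so did the death effector BAX (log2 -0.28), whose call was lost when any of the same 3 libraries was left out. Among BCL2 family and apoptosis genes 15 of 26 were higher and 5 lower, or 3 lower without either proliferating replicate and 8 lower with total counts. The survival genes BIRC3, from 6.54 and 6.11 to 72.4 and 67.2 CPM, CFLAR, from 24.7 and 26.3 to 67.7 and 66.9 CPM, and BCL2L2, from 35.7 and 35.95 to 78.2 and 83.8 CPM, rose. BCL2A1 rose from a trace, from 0.146 and 0.225 to 1.65 and 0.638 CPM. BCL2L1, which encodes BCL-XL, rose by 0.47 on the log2 scale.

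Secreted cytokines and chemokines rose by large factors. IL1A, the alarmin that starts the secretory programme, rose from 0.6102 and 0.326 CPM in proliferating cells to 133 and 84.8 CPM in senescent cells (log2 7.85, SE 0.404, edgeR adjusted p = 1.29e-05). IL1B rose from 2.47 and 1.88 to 145 and 104 CPM (log2 5.84, SE 0.311, edgeR adjusted p = 9.87e-06). The antagonist IL1RN had no count in proliferating cells and 0.42005 and 0.334 CPM in senescent ones, at least 10.2-fold higher when 3 counts over the group are taken as the floor. Both senescent libraries were above both proliferating ones for each of these ligands. Of 13 genes of the family and its signalling 8 were higher and 1 lower, and 5 were higher and 2 lower without senescent replicate 2 or with total counts. Without proliferating replicate 1, 2 were lower. The receptor IL1R1 stood at 15.5 and 17.5 CPM in proliferating cells and 23.02 and 23.4 CPM in senescent cells (log2 0.50), a call that was lost without proliferating replicate 1 or either senescent replicate and with total counts. IL6 rose from 27.6 and 28.5 CPM in proliferating cells to 733 and 554 CPM in senescent cells (log2 4.52, SE 0.243, edgeR adjusted p = 7.95e-06). Its signal transducer IL6ST rose by less (log2 0.71), the related receptor OSMR rose from 203 and 206 to 538 and 531 CPM and the ligand LIF rose from 35.98 and 32.97 to 92.4 and 90.1 CPM. SOCS1 and SOCS3, the feedback inhibitors of this receptor family, fell (log2 -1.44 and -1.26). In the IL-6 family as a whole 9 of 16 were higher and 4 lower.

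Of 16 CXC chemokines 7 had too few counts to be tested. All but 1 of the rest rose, 8 of 9, with a median log2 change of 5.32 (5.15 with a group at 0 counts set to its bound). Members nearly absent from proliferating cells, such as CXCL1, CXCL3 and CXCL5, could hardly be called lower. The share and the median partly reflect which genes could be tested. CXCL8, the neutrophil chemoattractant (chromosome 4, 73740569 to 73743716), rose from 19.4 and 17.1 CPM in proliferating cells to 1222 and 831 CPM in senescent cells (log2 5.82, SE 0.262, edgeR adjusted p = 2.10e-06). CXCL1, its neighbour and a ligand of the same receptor, rose from 0.0488 and 0.175 to 4.84 and 4.32 CPM. CXCL10 and CXCL11, which draw T cells through CXCR3 and are induced by interferon, rose from 1.64 and 3.03 to 125 and 94.9 CPM and from 0.244 and 0.351 to 20.4 and 19.6 CPM. CXCL5 had no count in proliferating cells and was at least 11.8-fold higher. CXCL12, a homeostatic chemokine, was the member that fell, from 8.52 and 8.37 to 2.8004 and 2.95 CPM (log2 -1.55). CC chemokines and colony-stimulating factors had 7 of 12 higher and 0 lower. CCL20, which attracts cells with CCR6, rose from 0 and 0.1002 to 14.9 and 9.21 CPM (log2 7.84). CSF2, which encodes GM-CSF, rose from 0.732 and 0.626 to 57.4 and 43.1 CPM (log2 6.20), and CCL2, the monocyte attractant, rose from 2.66 and 2.73 to 40.02 and 35.8 CPM. CSF3 was at least 9.43-fold higher from no count. IL32, an inducible inflammatory cytokine, rose from 12.8 and 11.1 to 132 and 105 CPM. Neither IL7 nor IL15 was called (log2 -0.28 and -0.07). Among chemokine receptors, CXCR4 had no count in proliferating cells and 1.06 and 1.003 CPM in senescent ones, at least 27.9-fold higher.

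Several of these genes carry a kappaB match (the letters GGG, any 2 bases and TTTCC) close to the start. It was found in 4 of 8 CXC chemokine promoters, in 5 of 11 promoters of NF-kappaB subunits and feedback genes, and in 1.93% of all promoters. The 7 stretches printed compare chemokine, cytokine and feedback genes that rose, with the match in capitals on either strand.
CXCL1, chr4:73869293-73869392, plus strand: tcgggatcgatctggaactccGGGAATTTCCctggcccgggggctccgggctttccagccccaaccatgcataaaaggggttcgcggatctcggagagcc
CXCL2, chr4:74099196-74099295, minus strand: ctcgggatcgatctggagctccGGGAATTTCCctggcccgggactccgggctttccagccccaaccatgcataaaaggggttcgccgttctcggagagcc
CXCL3, chr4:74038690-74038789, minus strand: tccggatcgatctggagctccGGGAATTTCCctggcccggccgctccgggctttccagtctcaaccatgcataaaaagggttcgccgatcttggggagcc
IL6, chr7:22727100-22727199, plus strand: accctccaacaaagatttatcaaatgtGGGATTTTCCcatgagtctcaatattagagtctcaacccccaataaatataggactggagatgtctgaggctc
CCL20, chr2:227813742-227813841, plus strand: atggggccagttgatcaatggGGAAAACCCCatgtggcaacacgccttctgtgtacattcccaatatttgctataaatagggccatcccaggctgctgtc
TNFAIP3, chr6:137867159-137867258, plus strand: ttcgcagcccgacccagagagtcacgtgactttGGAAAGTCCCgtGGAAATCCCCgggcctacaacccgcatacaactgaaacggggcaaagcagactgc
NFKBIA, chr14:35404750-35404849, minus strand: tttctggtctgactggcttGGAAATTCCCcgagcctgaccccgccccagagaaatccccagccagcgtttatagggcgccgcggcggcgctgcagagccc
In CXCL1, CXCL2 and CXCL3, which are close paralogs, the match starts 79, 78 and 79 bases before the annotated start. TNFAIP3 has 2 matches in the stretch. The window of CXCL8, which also rose, held no match to this string. A site spelled with other letters would not have been found.

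Of 22 NF-kappaB subunits and feedback genes 14 were higher and 3 lower (median 0.40). TNFAIP3, which encodes the ubiquitin editor A20, rose from 3.54 and 3.43 CPM in proliferating cells to 34.2 and 30.9 CPM in senescent cells (log2 3.22, SE 0.117, edgeR adjusted p = 2.80e-12). NFKBIZ, an inducible nuclear IkappaB protein, rose from 10.9 and 11.1 to 70.96 and 71.2 CPM, ZC3H12A, a ribonuclease that degrades cytokine mRNA, rose from 5.297 and 4.84 to 34.8 and 28.5 CPM, and NFKBIA rose from 46.5 and 47.7 to 138 and 112 CPM. Among subunits, RELA changed by 0.39, RELB by 0.48 and NFKB2 by 1.06 on the log2 scale. BCL3, a nuclear coregulator, fell (log2 -0.83). Among TNF ligands and receptors 14 of 21 were higher and 3 lower (5 with total counts). TNFSF15, an endothelial-type TNF ligand, rose from 0.146 and 0.1002 to 21.3 and 17.9 CPM (log2 7.27). TNFSF10, which encodes the death ligand TRAIL, rose from 0.415 and 0.551 to 16.9 and 12.6 CPM (log2 4.93), and its receptor TNFRSF10B rose from 153 and 154 to 456 and 482 CPM.

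Proteins that act on other secreted proteins rose as well. In the IGF axis 10 of 13 genes were higher and 0 lower (median 1.98). IGFBP3, which binds IGF in the circulation and in tissue (chromosome 7, 45912245 to 45921272), rose from 641 and 576 CPM in proliferating cells to 13639 and 11379 CPM in senescent cells (log2 4.36, SE 0.135, edgeR adjusted p = 6.15e-13) and gained more CPM than any other gene called without overlap. PAPPA, the protease that cuts IGF-binding proteins, rose from 5.74 and 6.19 to 197 and 232 CPM (log2 5.17, SE 0.170, edgeR adjusted p = 6.11e-10), and its inhibitors STC1 and STC2 rose from 251 and 246 to 1143 and 979 CPM and from 537 and 504 to 2268 and 1966 CPM. IGF2 and the receptor IGF1R were not called (log2 -0.19 and 0.18). In plasminogen activation and coagulation 13 of 16 genes were higher (median 0.97). PLAT, the tissue-type activator, rose from 630.2 and 613 to 3581 and 3136 CPM, and PLAU, the urokinase-type one, rose from 1053 and 1046 to 2432 and 2342 CPM. SERPINB2, an inhibitor of these enzymes, rose from 22.7 and 20.8 to 465 and 359 CPM (log2 4.24). F2RL2, a thrombin-receptor subunit, rose from 18.5 and 18.9 to 134 and 113 CPM. An AP-1 match (letters TGANTCA) was found in 54.5% of 11 promoters of this list and in 8.05% of all promoters.

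Of 18 matrix metalloproteinases and their inhibitors 13 were higher and 3 lower. MMP3, stromelysin, rose from 6.42 and 4.89 CPM in proliferating cells to 40.997 and 35.1 CPM in senescent cells (log2 2.75, SE 0.150, edgeR adjusted p = 1.08e-09), and MMP12, an elastase, rose from 0.171 and 0.1002 to 10.5 and 8.72 CPM (log2 6.11). MMP1, interstitial collagenase, rose from 295 and 282 to 2643 and 2000.1 CPM, but WTAPP1 overlaps it and rose from 47.4 and 46.3 to 708 and 508 CPM, so reads of these 2 genes cannot be assigned with certainty. MMP8 was at least 11.004-fold higher from no count. TIMP3, a matrix-bound inhibitor, rose from 966 and 958 to 8664 and 7753 CPM (log2 3.09). Among ADAM and ADAMTS proteases 18 of 24 were higher and 3 lower, led by ADAMTS8, from 0.317 and 0.551 to 16.9 and 20.004 CPM, and ADAM12, from 0.561 and 0.351 to 10.7 and 10.2 CPM. ADAM8 fell from 2.05 and 1.704 to 0.336 and 0.456 CPM. Serpins outside the plasminogen group included SERPINA9, a B cell serpin, which rose from 0.0732 and 0.0251 to 31.8 and 31.98 CPM (log2 9.24), and SERPINA3, an acute-phase antichymotrypsin, whose counts had a ratio of 36.5 (95% interval 6.09 to 1489.6).

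Complement rose in 10 of 13 genes and fell in 1. C3, the hub of the cascade (chromosome 19, 6677704 to 6720650), rose from 2.66 and 3.16 CPM in proliferating cells to 261 and 249 CPM in senescent cells (log2 6.46, SE 0.112, edgeR adjusted p = 2.54e-15). SERPING1, the inhibitor of the proteases C1R and C1S, rose from 1.39 and 1.88 to 109 and 77.2 CPM, and C1S itself rose from 46.99 and 50.4 to 259 and 232 CPM. C5 fell from 4.52 and 4.71 to 1.15 and 1.702 CPM (log2 -1.70). Growth factors were higher in 19 of 33 and lower in 5. PDGFB, a platelet-derived growth factor chain, rose from 1.59 and 1.33 to 19.1 and 20.5 CPM (log2 3.76), TGFB2 rose from 6.86 and 7.84 to 65.6 and 64.3 CPM and INHBA, which encodes activin A, rose from 36.4 and 36.3 to 304 and 300.2 CPM. TGFB1 was not called (log2 0.02). PDGFD fell from 7.76 and 7.99 to 2.77 and 3.16 CPM and FGF5 fell from 144 and 143 to 65.2 and 66.8 CPM. Of receptor tyrosine kinases 7 of 21 were higher and 6 lower, near the 29.8% and 29.4% of all genes tested. Their median flipped with the scaling (0.04, and -0.14 with total counts). FLT1, a VEGF receptor, rose from 9.47 and 10.4 to 79.7 and 69.8 CPM, FGFR3 fell from 1.196 and 1.38 to 0.252 and 0.243 CPM, and neither PDGFRA nor FGFR1 was called (log2 -0.05 and 0.08).

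Interferon-stimulated genes rose almost without exception. Of 39 interferon-stimulated effectors 38 were higher and 0 lower (median 2.80). The member not called was IFI27, listed at 0 in both proliferating libraries and at 0.532 and 0.0608 CPM in the senescent ones. MX2, a restriction factor at the nuclear pore, rose from 0.0976 and 0.426 CPM in proliferating cells to 87.7 and 85.9 CPM in senescent cells (log2 8.37, SE 0.215, edgeR adjusted p = 3.09e-13). MX1, its cytoplasmic relative, rose from 0.903 and 1.13 to 129.8 and 125 CPM (log2 6.97, SE 0.134, edgeR adjusted p = 6.53e-15). IFI44L rose from 0.171 and 0.276 to 32.96 and 43.9 CPM and RSAD2, which makes a chain-terminating nucleotide, rose from 0.0244 and 0.225 to 13.2 and 17.1 CPM. ISG15, a ubiquitin-like modifier, rose from 18.8 and 19.1 to 252 and 244 CPM (log2 3.71). At the low end, IFITM2 changed by 0.29 on the log2 scale, a call that was lost with total counts and without either proliferating replicate or senescent replicate 1. No proliferating library reached the level of a senescent one for BST2, MX2, MX1, IFI44L, RSAD2 or ISG15.

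The element known for this response, the interferon-stimulated response element (ISRE, the letters GAAA, any 2 bases and GAAA again), was found in 19 of 23 promoters of the effectors (82.6%), against 3.81% of all promoters. Among genes called higher by more than 2-fold the share was 6.76%, and among the genes tested 3.05%. The 4 stretches printed show how often the element repeats before the start of strongly raised members. Capitals mark the match on either strand, and where 2 matches overlap the capitals run together.
BST2, chr19:17405631-17405770, minus strand: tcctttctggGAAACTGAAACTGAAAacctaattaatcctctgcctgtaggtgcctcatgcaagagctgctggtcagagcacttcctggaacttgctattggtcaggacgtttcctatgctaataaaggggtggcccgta
ISG15, chr1:1013367-1013496, plus strand: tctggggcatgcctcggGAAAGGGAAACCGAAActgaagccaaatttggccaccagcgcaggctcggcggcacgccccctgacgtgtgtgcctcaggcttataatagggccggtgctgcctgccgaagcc
IFI6, chr1:27672193-27672362, minus strand: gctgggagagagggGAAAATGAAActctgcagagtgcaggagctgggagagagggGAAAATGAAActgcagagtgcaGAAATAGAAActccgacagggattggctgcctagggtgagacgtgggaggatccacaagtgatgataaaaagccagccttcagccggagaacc
IFIT1, chr10:89392493-89392622, plus strand: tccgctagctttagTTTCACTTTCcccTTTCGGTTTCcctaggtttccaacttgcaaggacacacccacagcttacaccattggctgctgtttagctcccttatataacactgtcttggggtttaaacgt
BST2 and ISG15 each hold 2 overlapping matches, IFI6 holds 3 separate ones and IFIT1 holds 2 on the minus strand of the gene. IFI6, a mitochondrial survival factor, rose from 19.3 and 20.5 to 1069 and 963 CPM (log2 5.67, SE 0.128, edgeR adjusted p = 3.22e-14), and IFIT1, which binds RNA with an uncapped end, rose from 16.2 and 17.5 to 380.3 and 381 CPM.

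The sensors that can start such a response diverged. Of 22 nucleic acid sensors 14 were higher and 3 lower. The enzymes OAS1 and OAS2, which double-stranded RNA switches on, rose from 0.146 and 0.1503 CPM in proliferating cells to 93.1 and 94.3 CPM in senescent cells (log2 9.27) and from 0.708 and 0.802 to 166 and 173 CPM (log2 7.81). IFIH1 and DDX58, the RNA helicases MDA5 and RIG-I, rose from 2.88 and 4.23 to 80.3 and 79.1 CPM and from 21.4 and 19.8 to 192 and 205 CPM. CGAS, the sensor of cytosolic DNA, fell from 8.74 and 9.32 to 4.28 and 3.86 CPM (log2 -1.15, SE 0.145, edgeR adjusted p = 5.55e-06), and its adaptor STING1 changed by 0.29 on the log2 scale, a call that was lost with total counts and without either proliferating replicate. NOD1 fell from 7.18 and 7.12 to 1.65 and 2.16 CPM and MAVS, the adaptor of the helicases, fell from 167 and 155 to 115 and 119 CPM. In the interferon pathway 12 of 20 genes were higher and 5 lower. IRF7 and IRF9, which carry and amplify the signal, rose from 0.268 and 0.301 to 5.91 and 2.797 CPM and from 29.7 and 31.4 to 92.9 and 87.7 CPM. USP18, which shuts off the receptor, rose from 5.22 and 5.46 to 43.3 and 44.9 CPM, and IRF3 fell (log2 -0.62). Of the interferon genes on the list, IFNE alone could be tested, at 0.781 and 1.05 CPM in proliferating cells and 0.42005 and 0.426 CPM in senescent cells. Its call as lower was lost with DESeq2 and without proliferating replicate 2 or either senescent replicate.

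Antigen presentation rose by smaller steps. Of 18 genes 14 were higher and 1 lower. HLA-B rose from 68.4 and 86.5 CPM in proliferating cells to 701 and 715 CPM in senescent cells (log2 3.19, SE 0.157, edgeR adjusted p = 2.31e-08), B2M, the light chain of class I, rose from 108 and 106 to 322 and 336 CPM and HLA-C rose from 231 and 236 to 656 and 726 CPM. Class I genes are close paralogs, so their separate values are uncertain, and TAP1, TAPBP and HLA-E had few counts here. An ISRE match was found in 60.0% of 10 promoters of this list. Guanylate-binding proteins and kynurenine enzymes had 7 of 8 higher and 0 lower, with GBP4 from 0.146 and 0.0752 to 2.41 and 2.098 CPM and KYNU from 1.56 and 1.45 to 5.54 and 8.09 CPM. Of APOBEC3 cytidine deaminases 1 of 5 was higher (2 without senescent replicate 2, 0 with total counts) and 1 lower, with a median that flipped with the scaling, and APOBEC3B was the one that fell, from 36.8 and 35.3 to 2.63 and 2.49 CPM (log2 -3.81). Ligands of NK and T cell receptors were higher in 11 of 16, or 7 without proliferating replicate 1. CD274, which encodes PD-L1, rose from 25.4 and 23.1 to 77.7 and 74.7 CPM, ULBP2, an NKG2D ligand, rose from 8.201 and 8.99 to 21.2 and 20.1 CPM, and the related ULBP3 fell (log2 -0.59). ICAM1, which leukocyte integrins grip, rose from 20.97 and 22.2 to 712 and 570.3 CPM (log2 4.89, SE 0.114, edgeR adjusted p = 3.40e-14), VCAM1 rose from 9.45 and 11.4 to 60.2 and 59.8 CPM and F11R, a junctional adhesion molecule, rose from 0.488 and 0.476 to 11.3 and 8.88 CPM.

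**Figure D4:**
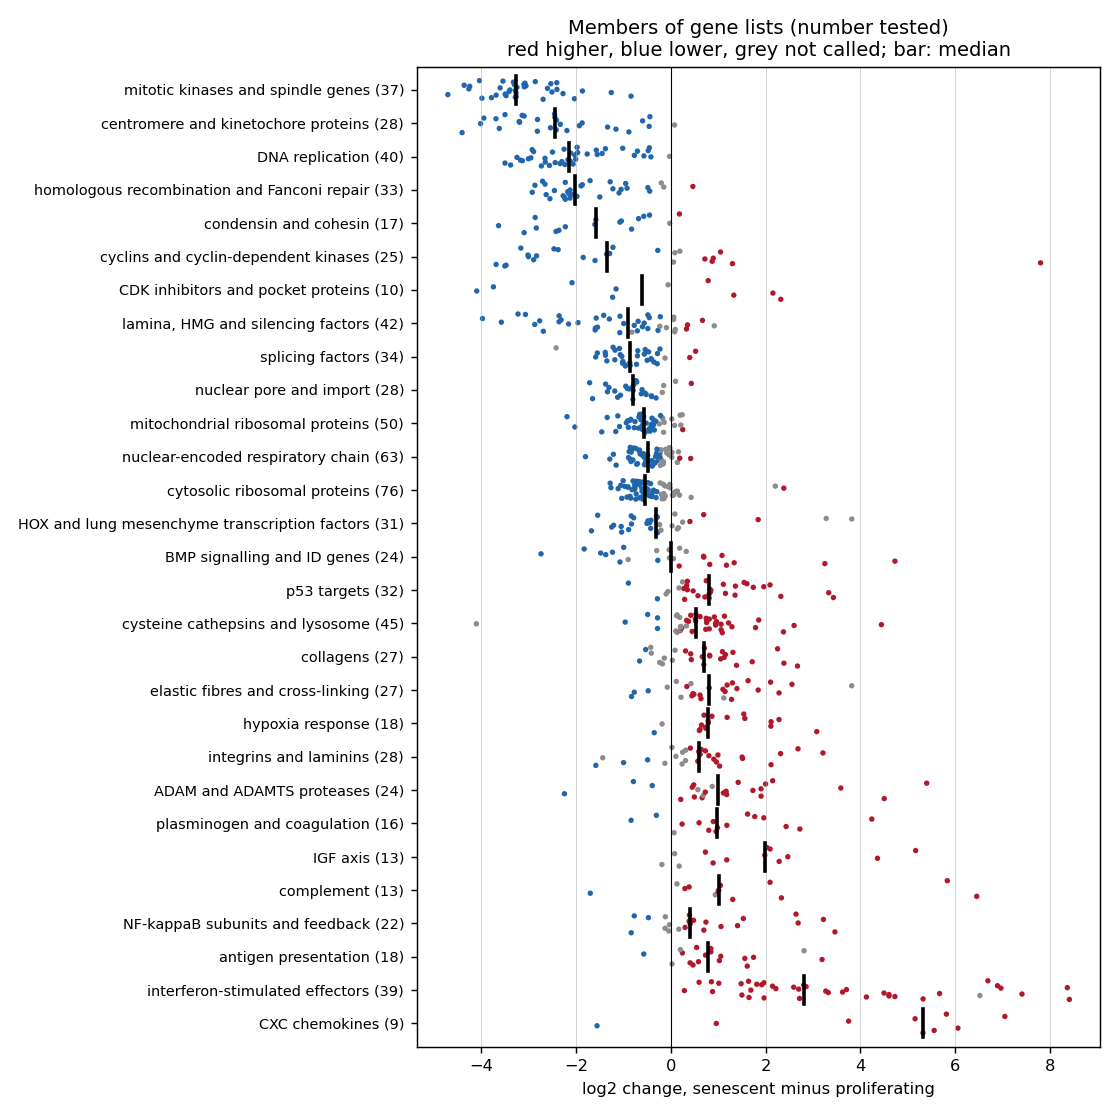
Fitted log2 change, senescent minus proliferating without doxycycline, of each tested member of 29 lists, 1 point a gene, with red for called higher, blue for called lower, grey for not called and a bar at the median. The medians run from -3.26 in mitotic genes to 2.80 in interferon-stimulated effectors and 5.32 in CXC chemokines.

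Matrix genes rose in part. Of 27 collagen chains 18 were higher and 2 lower (median 0.70), or 1 lower without proliferating replicate 1 and 6 lower with total counts. COL1A1 and COL3A1, the fibrillar chains of connective tissue, were not called: COL1A1 stood at 11240 and 11242 CPM in proliferating cells and 11304 and 11735 CPM in senescent cells, and COL3A1 changed by -0.14. COL8A1, a short-chain collagen, rose from 63.1 and 61.7 to 291 and 305 CPM (log2 2.25, SE 0.0895, edgeR adjusted p = 8.46e-12). COL6A1 of the microfibrils rose from 1918 and 1869 to 5029 and 4381 CPM, and COL5A1, which nucleates fibrils, rose from 517 and 505 to 1055 and 1219.9 CPM. Among enzymes that hydroxylate and cross-link collagen, P4HA2, a prolyl hydroxylase, rose from 187 and 182 to 1152 and 1020.3 CPM (log2 2.56), LOX, lysyl oxidase, rose from 513 and 491 to 2459 and 2433 CPM (log2 2.29), and PLOD2, a lysyl hydroxylase, rose from 366 and 359 to 1595 and 1529 CPM. LOXL1 fell (log2 -0.77). That list had 18 of 27 higher and 3 lower. Of proteoglycans and matricellular proteins 19 of 28 were higher and 4 lower. FN1, fibronectin, rose from 2843 and 2749 to 8274 and 9630 CPM, CCN4, a Wnt-induced matricellular protein, rose from 111 and 123 to 586 and 651 CPM, and TNC, tenascin C, rose from 152 and 159.8 to 637 and 717 CPM. The syndecan SDC1 fell from 39.3 and 39.1 to 12.3 and 13.01 CPM and the small proteoglycan DCN, decorin, fell from 665 and 694 to 444 and 472 CPM.

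Receptors and linkers of the matrix followed it, with 17 of 28 integrins and laminins higher and 3 lower. LAMA4, a laminin chain of vessel and muscle basement membranes, rose from 10.8 and 11.7 CPM in proliferating cells to 102 and 107 CPM in senescent cells (log2 3.21, SE 0.0978, edgeR adjusted p = 5.21e-13). ITGB1, the shared beta chain of most matrix integrins, rose from 1392 and 1334 to 3894 and 3902 CPM, and ITGA4 fell from 91.8 and 92.4 to 46.3 and 46.1 CPM. Among cadherins 8 of 21 were higher and 6 lower, or 3 lower without senescent replicate 1. Of all genes tested 29.8% were higher and 29.4% lower. CDH13, an anchored cadherin, rose from 28.3 and 26.6 to 146 and 137 CPM. CDH1, the epithelial cadherin, had no count in proliferating cells and 0.196 and 0.0912 CPM in senescent ones, at least 3.93-fold higher. In hyaluronan metabolism 5 were higher and 5 lower of 12, with a median that flipped with the scaling, and 3 were higher without senescent replicate 2 or with total counts. HAS2, the main synthase, rose from 5.88 and 4.94 to 14.4 and 13.3 CPM, HAS3 fell (log2 -0.81) and the receptor CD44 rose from 2609 and 2624 to 6081 and 5999.7 CPM. Contractile genes had 11 of 21 higher and 5 lower. ACTA2, the actin of myofibroblasts, rose from 234 and 245 to 617 and 615 CPM (log2 1.36), MYOCD, a coactivator of such genes, rose from 32.6 and 32.1 to 82.4 and 99.3 CPM, and neither SRF nor MRTFA was called (log2 -0.10 and -0.00).

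Lysosomal genes rose more often than they fell. Of 45 cathepsins and lysosomal genes 31 were higher and 4 lower (median 0.53), or 1 lower without proliferating replicate 2. GLB1, which encodes the beta-galactosidase used to stain senescent cells, rose from 69.2 and 67.6 CPM in proliferating cells to 138 and 126 CPM in senescent cells (log2 0.95, SE 0.0778, edgeR adjusted p = 4.51e-08). FUCA1, a fucosidase, rose from 0.171 and 0.2004 to 4.2005 and 4.01 CPM (log2 4.45), CTSS, a cathepsin of antigen-presenting cells, rose from 1.93 and 2.13 to 12.6 and 12.1 CPM, and LGMN, legumain, rose from 4.76 and 3.68 to 16.02 and 14.6 CPM. TFE3, an activator of lysosomal genes, was not called (log2 0.13). An E-box match (letters CACGTG) was found in 33.3% of 21 promoters of the list, against 7.28% of all and 9.81% of the genes tested. It was not particular to this list: ribosome biogenesis factors, which fell more often than they rose, had it in 50% of 18 promoters. Autophagy genes were higher in 19 of 30 and lower in 2 (1 without proliferating replicate 2, 4 with total counts), with OPTN, a selective receptor, from 127 and 127 to 319 and 304 CPM, and GABARAPL1, from 59.3 and 62.9 to 164 and 126 CPM. Against a fold change of 1.5, 10 of the autophagy genes stayed called higher.

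Genes for ribosomes and for the respiratory chain fell, mostly by small steps. Of 76 cytosolic ribosomal proteins 53 were lower and 1 higher, or 3 higher without senescent replicate 2 (median -0.54), and 14 stayed lower in a test against a 1.5-fold change. RPS12 fell from 513 and 497 CPM in proliferating cells to 204 and 217 CPM in senescent cells (log2 -1.26), RPLP1 fell from 691 and 651 to 323 and 299 CPM, and RPL24 was not called (log2 0.04). Many ribosomal protein genes have processed pseudogenes that can share their reads, and RPS9 and RPS10 had few counts here, so these values are uncertain. Ribosome biogenesis factors were lower in 17 of 31 and higher in 3, or in 1 without either proliferating replicate and 0 with total counts. FBL, which methylates ribosomal RNA, fell from 108 and 108 to 37.3 and 36.8 CPM (log2 -1.55). Mitochondrial ribosomal proteins had 39 of 50 lower (median -0.56), and 12 against the 1.5-fold change. Respiratory chain subunits encoded in the nucleus had 45 of 63 lower and 2 higher, or 1 higher without either proliferating replicate, without senescent replicate 1 or with total counts (median -0.47), again 12 against the 1.5-fold change. COX8A of complex IV fell from 169 and 164 to 70.1 and 66.8 CPM and NDUFB6 of complex I fell from 47.6 and 42.6 to 19.9 and 19.1 CPM. Transcripts of the mitochondrial genome did not follow: 8 of 13 were higher and 0 lower, or 2 lower with total counts. ND5 rose from 3101 and 3212 to 6769.6 and 5985 CPM (log2 1.01), while COX1 and COX3 were not called (log2 0.03 and -0.18).

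Genes of RNA processing fell as well. Splicing factors were lower in 30 of 34 and higher in 2 (median -0.86), and 18 stayed lower against the 1.5-fold change. SRSF2, which binds exonic enhancers, fell from 297 and 293 CPM in proliferating cells to 99.6 and 103 CPM in senescent cells (log2 -1.55, SE 0.0838, edgeR adjusted p = 3.33e-10). SNRPA of the U1 particle fell from 82.8 and 83.4 to 29.1 and 26.4 CPM and SRSF3 fell from 324 and 313 to 119.8 and 125 CPM. SRSF5 rose (log2 0.52). Nuclear pore and import genes were lower in 24 of 28 (median -0.79). KPNA2, an importin, fell from 464 and 452 to 148 and 144 CPM, and RCC1, the exchange factor of RAN, fell from 66.2 and 65.5 to 20.3 and 20.004 CPM. Proteasome subunits were lower in 14 of 31 and higher in 0, or 26 lower with total counts. PSMC3 and PSMA7 of the proteasome fell (log2 -1.01 and -0.98). Genes of the unfolded protein response and secretion were higher in 18 of 27 and lower in 3 (5 with total counts), with 5 higher against the 1.5-fold change. ERN1, the sensor IRE1, rose from 8.47 and 8.04 to 25.9 and 24.3 CPM, its targets DNAJB9 and SEL1L rose from 20.4 and 20.6 to 59.8 and 56.2 CPM and from 133 and 130.1 to 251 and 294 CPM, and XBP1 was not called (log2 0.11).

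Metabolic genes split within pathways. Of 29 glycolysis and pentose phosphate genes 15 were higher and 10 lower, or 6 lower without proliferating replicate 1. TKT, the transketolase of the pentose phosphate path, fell from 313 and 307 CPM in proliferating cells to 167 and 146 CPM in senescent cells (log2 -0.99, SE 0.0833, edgeR adjusted p = 6.08e-08), and TALDO1, its transaldolase, fell as well (log2 -0.94). PDK4, which shuts the entry of pyruvate into mitochondria, rose from 1.66 and 1.23 to 8.09 and 7.17 CPM, PFKFB4 rose from 14.3 and 15.6 to 58.8 and 52.7 CPM and HK2, a hexokinase, rose from 86.7 and 79.1 to 187 and 183 CPM. Hypoxia-response genes were higher in 16 of 18 and lower in 1, or 2 with total counts (median 0.79). ANGPTL4, a lipase inhibitor, rose from 29.1 and 24.4 to 261 and 192 CPM and VEGFA rose from 115 and 117 to 374 and 302 CPM. Redox genes driven by NRF2 were lower in 13 of 28 and higher in 6. NQO1, a quinone reductase, fell from 353 and 366 to 41.9 and 39.6 CPM (log2 -3.14), GPX1, a selenoprotein peroxidase, fell from 265 and 266 to 105 and 106 CPM and SOD2, the mitochondrial superoxide dismutase that NF-kappaB also induces, rose from 286 and 280.2 to 869 and 810.3 CPM. ATF4 targets were lower in 13 of 26 and higher in 7. PHGDH, the first enzyme of serine synthesis, fell from 64.5 and 63.7 to 19.7 and 19.9 CPM, and VLDLR rose from 2.88 and 2.91 to 10.5 and 8.72 CPM. In cholesterol and fatty acid synthesis 11 were higher and 9 lower of 32 (14 lower with total counts), near the 29.8% and 29.4% of all genes tested. Its median flipped with the scaling. EBP, a sterol isomerase of that pathway, fell from 32.7 and 33.3 to 10.7 and 11.3 CPM. Prostaglandin genes included PTGS2, the inducible cyclooxygenase, which rose from 1.32 and 1.75 to 33.3 and 27.3 CPM, and PTGIS, prostacyclin synthase, which rose from 0.2197 and 0.125 to 4.2005 and 2.58 CPM. APOD, a lipid carrier, had no count in proliferating cells and 2.8004 and 2.16 CPM in senescent ones, at least 67.2-fold higher.

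HOX and lung mesenchyme factors fell more often than they rose, and other lineage factors went both ways, in a balance that depended on the scaling. Of 31 HOX and lung mesenchyme factors 19 were lower and 3 higher (median -0.30). TBX2, a repressor of CDK inhibitor genes, fell from 173 and 178 CPM in proliferating cells to 63.04 and 57.8 CPM in senescent cells (log2 -1.54, SE 0.0983, edgeR adjusted p = 2.24e-09). GLI1, the readout of Hedgehog signalling, fell from 2.12 and 2.28 to 0.504 and 0.882 CPM, HOXA5 fell from 17.8 and 18.6 to 7.81 and 7.995 CPM, and HOXB8 rose from 0.537 and 0.777 to 2.69 and 2.04 CPM. Of 62 KLF, CEBP and lineage factors 31 were higher and 21 lower, or 25 higher and 24 lower with total counts. The mesenchymal regulators TWIST2, PRRX1 and PRRX2 fell (log2 -1.62, -1.61 and -1.62), and so did PPARG, of fat cells, from 50.4 and 51.9 to 14.3 and 16.3 CPM. EHF, an epithelial ETS factor, rose from 0.488 and 0.351 to 86.1 and 86.9 CPM (log2 7.67, SE 0.141, edgeR adjusted p = 4.38e-15). ELF3, another of that class, had 1 count in the proliferating libraries together and a count ratio of 54.2 (95% interval 9.26 to 2188). BHLHE41, a circadian repressor, rose from 0.2197 and 0.125 to 3.64 and 2.55 CPM, MXI1, a MYC antagonist, rose from 6.79 and 7.44 to 53.1 and 40.04 CPM and MYC itself was not called (log2 0.13). CEBPB, a regulator of the secretory programme, did not rise: it fell from 32.2 and 37.6 to 27.98 and 26.5 CPM (log2 -0.36), a call that was lost without proliferating replicate 2.

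Immediate-early factors were divided. Of 24 genes 13 were higher and 8 lower, or 5 lower without proliferating replicate 2. EGR1 fell from 102 and 95.4 CPM in proliferating cells to 44.7 and 33.4 CPM in senescent cells (log2 -1.34, SE 0.115, edgeR adjusted p = 1.45e-07), whereas its relative EGR2 rose from 0.0732 and 0.0752 to 5.38 and 3.74 CPM (log2 5.88, SE 0.439, edgeR adjusted p = 1.45e-08). ATF3, a stress factor, rose from 5.69 and 5.86 to 35.03 and 35.1 CPM, BATF2, induced by interferon, rose from 1.27 and 2.004 to 16.1 and 18.1 CPM, and BATF3 fell from 4.78 and 4.48 to 1.09 and 1.16 CPM. IER2 fell from 40.3 and 38.9 to 12.4 and 11.98 CPM, and FOSL1 fell (log2 -0.66). Feedback genes of the ERK pathway were higher in 12 of 19 and lower in 3. DUSP4, a nuclear phosphatase of ERK, rose from 0.903 and 0.827 to 7.73 and 7.87 CPM, and DUSP6, its cytoplasmic counterpart, rose from 52.8 and 52.1 to 143 and 123 CPM.

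Targets and parts of developmental signalling pathways gave mixed lists with clear single members. Of 24 BMP and ID genes 9 were higher and 8 lower, against 29.8% and 29.4% of all genes tested, with a median that flipped with the scaling. The inhibitors of differentiation ID1, ID2 and ID3, which BMP induces, fell: ID1 from 51.97 and 45.1 CPM in proliferating cells to 8.57 and 5.96 CPM in senescent cells (log2 -2.73, SE 0.132, edgeR adjusted p = 1.41e-10), ID2 from 29.4 and 30.7 to 13.2 and 8.27 CPM and ID3 from 69.7 and 62.4 to 32.8 and 23.4 CPM. SMAD6, the feedback inhibitor of that pathway, fell from 18.5 and 19.7 to 5.405 and 5.38 CPM. The ligand BMP2 rose from 14.1 and 17.9 to 172 and 132 CPM (log2 3.25) and the extracellular modulator BMPER rose from 0.659 and 0.601 to 15.5 and 18.1 CPM. In the TGF-beta pathway 9 of 16 were higher and 3 lower (5 higher with total counts). TGFBI, an induced matrix protein, rose from 3354 and 3254 to 13591 and 11959 CPM and the receptor TGFBR2 rose from 329 and 325 to 1071 and 1153 CPM. Of Wnt genes 10 were higher and 9 lower of 20, again with a flip of the median. The antagonist DKK1 fell from 52.9 and 47.3 to 12.3 and 11.6 CPM, DKK2 rose from 0.976 and 0.927 to 12.9 and 14.4 CPM, WNT7B fell from 14.8 and 14.7 to 2.1003 and 2.25 CPM and WNT16, a ligand known from senescent stroma, rose from 41.9 and 38.7 to 232 and 227 CPM. Of Notch genes 3 of 14 were higher and 5 lower, or 2 lower without either proliferating replicate and 3 without senescent replicate 1. JAG1 rose from 25.4 and 24.4 to 65.4 and 70.9 CPM, DLL4 fell from 20.6 and 18.2 to 3.5004 and 3.65 CPM, and HEYL, a target, fell to no count in the senescent libraries, at least 6.503-fold lower.

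In the Hippo pathway, whose effector the uninduced transgene would supply, 11 of 27 parts and YAP targets were higher and 4 lower, or 5 higher without proliferating replicate 2. With total counts 4 were higher and the median flipped. ANKRD1, a YAP and stretch target, rose from 3.08 and 3.68 CPM in proliferating cells to 94.6 and 71.7 CPM in senescent cells (log2 4.62, SE 0.143, edgeR adjusted p = 8.94e-13), and WWC1, which encodes KIBRA, rose from 2.64 and 2.23 to 10.2 and 10.3 CPM. CCN2, the standard YAP target, was not called: 784 and 786 CPM in proliferating cells and 872 and 799.6 CPM in senescent cells (log2 0.09). TEAD4, a DNA-binding partner of YAP, fell from 16.4 and 15.5 to 6.22 and 4.99 CPM and TEAD1 was not called (log2 0.08). The rise of ANKRD1 stood apart from the other members of its list, the next largest being that of WWC1.

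Channels and guidance molecules belonged to the rising side. Of 34 ion channels 23 were higher and 4 lower, or 2 lower without proliferating replicate 1 (median 0.77). KCNJ2, an inward rectifier, rose from 0.537 and 0.351 CPM in proliferating cells to 6.61 and 5.93 CPM in senescent cells (log2 3.81, SE 0.300, edgeR adjusted p = 2.72e-08), its relative KCNJ15 rose from 1.34 and 1.45 to 14.8 and 12.9 CPM and the connexin GJA5 rose from 0.0488 and 0.0752 to 0.896 and 1.25 CPM. The chloride channel regulator CLCA2, a p53 target, had a count ratio of 47.2 (95% interval 7.99 to 1909). ITPR2, the calcium release channel linked to senescence, rose from 10.1 and 10.4 to 17.03 and 21.6 CPM, and KCNK2 fell from 3.64 and 4.76 to 1.82 and 1.88 CPM. Of 29 axon guidance genes 16 were higher and 5 lower (8 lower with total counts). SEMA6D rose from 31.8 and 31.2 to 158 and 157 CPM and SLIT2 fell from 15.2 and 14.4 to 3.86 and 6.202 CPM. Of proteins used as surface or classical markers of senescent cells 16 of 25 were higher and 4 lower. DPP4 rose from 78.7 and 80.2 to 288 and 291 CPM, ARMCX3 rose from 59.8 and 59.3 to 169.9 and 168 CPM, and CAV1, caveolin, fell from 2292 and 2280.3 to 1351 and 1459.5 CPM. Among tetraspanins and caveolar proteins, TSPAN13 rose from 3.03 and 3.48 to 15.8 and 17.3 CPM and CAVIN3 fell from 104 and 109 to 28.6 and 30.9 CPM. S100 proteins and annexins were lower in 9 of 17 and higher in 4. S100A6 fell from 1508 and 1494 to 684 and 671 CPM and ANXA8 rose from 0.195 and 0.1503 to 1.37 and 1.37 CPM.

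A few genes went from the edge of detection to a clear level. A gene at 0.1 CPM or less in both libraries of one state and 1 CPM or more in both of the other was found 26 times for senescent cells and 2 times for proliferating cells. Without proliferating replicate 2 there were 49 on the senescent side, and on the proliferating side 5 without proliferating replicate 1 and 4 and 9 without senescent replicates 1 and 2. SERPINA9, PTCHD4, LCE2C, MEOX1, EGR2, CXCL3 and CCND2 were among the 26. PTCHD4, a p53-induced Hedgehog antagonist, rose from 0.0244 and 0.0752 CPM in proliferating cells to 8.88 and 7.24 CPM in senescent cells. MRGPRX3, a sensory receptor, had 1 count in the proliferating libraries together and stood at 8.96 and 7.57 CPM in the senescent ones. MEOX1, a homeobox factor of myofibroblast activation, rose from 0.0488 and 0.0752 to 6.05 and 5.32 CPM. SAA1, an acute-phase protein, had no count in proliferating cells and 4.37 and 4.59 CPM in senescent ones, at least 121-fold higher. Of the 26 genes 17 were at 1 CPM or more in both senescent libraries with doxycycline, and 5 met the same rule within the doxycycline pair. On the proliferating side the 2 were HNRNPA1P38, a processed pseudogene whose reads may belong to its parent, and a locus without a proper symbol.

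Some of the risen genes are neighbours, in an order that passes over genes with too few counts to be tested. When coding genes that were tested were put in genome order, the longest run of adjacent genes that all rose by more than 2-fold had 10 members: PSG8 to CD177 on chromosome 19, 42752686 to 43366081. PSG1, a pregnancy-specific glycoprotein, rose from 7.79 and 7.37 CPM in proliferating cells to 135 and 122 CPM in senescent cells, and PSG4 rose from 129 and 129.8 to 309 and 289 CPM. These glycoproteins are near-copies, so the split of reads among them is uncertain. Other runs were CXCL8, CXCL1, CXCL5, CXCL3 and CXCL2 on chromosome 4, IL1A, IL1B, IL1RN, PSD4 and PAX8 on chromosome 2, 5 late cornified envelope genes from LCE2C to LCE1F on chromosome 1, SERPINA1, SERPINA9, SERPINA12 and SERPINA3 on chromosome 14, and TNFSF15, TNC, PAPPA and ASTN2 on chromosome 9. Runs of 4 genes that fell were HIRIP3 to a locus beside DOC2A on chromosome 16 and MZT2A to LYPD1 on chromosome 2.

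Of 2115 long noncoding RNAs tested, 537 were higher (25.4%) and 363 lower (17.2%), against 29.8% and 29.4% of all genes. PURPL, a p53-regulated RNA, rose from 1.39 and 1.23 CPM in proliferating cells to 9.89 and 10.3 CPM in senescent cells (log2 2.94, SE 0.162, edgeR adjusted p = 3.85e-10). NEAT1, the scaffold of paraspeckles, rose from 96.1 and 97.2 to 183 and 222 CPM and MALAT1 rose from 83.2 and 95.8 to 150.5 and 176 CPM. DLEU2, the host of miR-15a and miR-16-1, fell from 8.52 and 7.77 to 1.54 and 1.64 CPM, and MIR17HG, the host of the miR-17 to miR-92a cluster, fell from 1.49 and 1.78 to 0.5601 and 0.395 CPM. The snoRNA host genes SNHG1 and SNHG3 fell (log2 -1.12 and -1.32). Over symbols that begin with SNHG 15 of 26 were lower and 4 higher. Among kinesin genes 20 of 39 were lower and 9 higher.

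The most abundant transcripts shifted from the cytoskeleton to secreted proteins. The 10 genes with the largest gain of mean CPM were IGFBP3, TGFBI, TIMP3, IGFBP5, FN1, ND4, CD44, ND5, IGFBP4 and SPARC, and they took 3.02% and 3.08% of all counts in proliferating cells and 8.46% and 7.95% in senescent cells. Of these 10, 7 encode secreted or matrix proteins. The 10 with the largest loss were ACTB, VIM, ACTG1, EEF1A1, TUBA1B, TMSB10, LGALS1, FLNA, ENO1 and CAV1, from 4.91% and 4.9% to 2.7% and 2.65%. ACTB, cytoplasmic actin, fell from 11484 and 11780 CPM in proliferating cells to 6669.5 and 6168 CPM in senescent cells (log2 -0.86, SE 0.112, edgeR adjusted p = 7.64e-06). TGFBI rose from 3354 and 3254 to 13591 and 11959 CPM, and IGFBP5 rose from 2424 and 2374 to 9613 and 9362 CPM. The 100 most abundant genes held 25.2% and 25.4% of counts in proliferating and 30.3% and 29.3% in senescent cells. As a check of the label, 15 fibroblast markers were tested and 8 were higher and 4 lower, with COL1A2, THY1 and VIM abundant in all 4 libraries. TCF21, a marker of lung mesenchyme, was at 48.2 and 50.6 and 87.5 and 90.7 CPM. Of the markers of other cell types 9 of 20 epithelial, 6 of 14 endothelial and 6 of 18 leukocyte markers had enough counts to be tested. So had 5 of 16 neuronal, glial and melanocyte markers and 9 of 12 smooth-muscle and pericyte markers. Of the last list 6 were higher and 2 lower, and its summed level was 1096 and 1060 CPM in proliferating and 1360 and 1446 CPM in senescent cells. The epithelial markers summed to 241 and 241 CPM in proliferating and 169 and 159 CPM in senescent cells. CD3E, MS4A1, NKX2-1, GRHL2, CLDN5 and SOX10 had no count in any of the 4 libraries. The summed level of the leukocyte markers was 76.2 and 72.2 CPM in proliferating and 171 and 126 CPM in senescent cells, most of it from the lysosomal protein CD68, and PTPRC, which defines leukocytes, was at 0.0244 CPM on average in proliferating and 0.202 CPM in senescent cells.

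The same bleomycin treatment was also compared in cells with doxycycline, and the difference between the 2 changes was tested. With doxycycline 55.5% of the genes were called, 4600 higher (26.8%) and 4919 lower (28.7%). Of the genes called higher without doxycycline 3221 of 5108 (63.1%) were called higher with it too, and of those called lower 3595 of 5047 (71.2%) were called lower. Beyond 2-fold the shares were 73.2% and 76.6%. The difference itself was called for 19.9% of all genes, 1386 with a higher change with doxycycline (8.08%) and 2021 with a lower one (11.8%). With total counts the split was 2639 and 1105, so the balance of directions depends on the scaling. The counts also depended on single libraries: they were 733 and 1221 without proliferating replicate 1, 704 and 1148 without proliferating replicate 2, 825 and 1197 without senescent replicate 1 with doxycycline, and 918 higher without replicate 2 of that group.

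**Figure D5:**
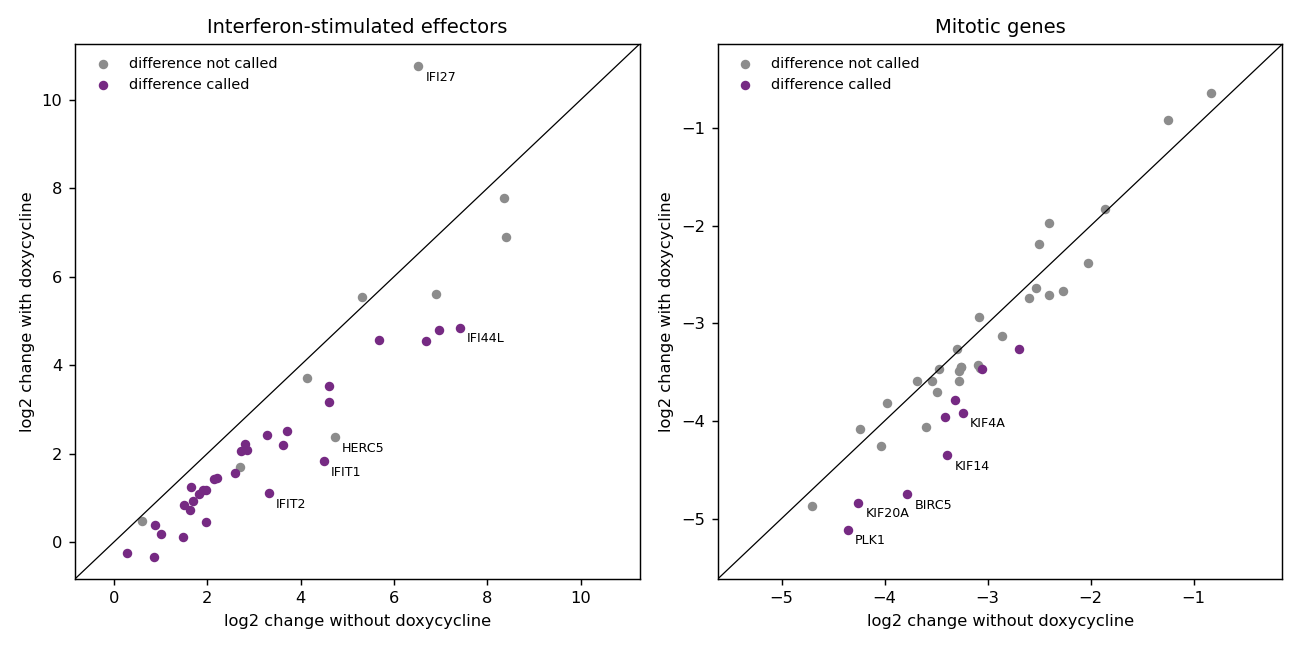
Log2 change with bleomycin in cells with doxycycline (vertical) against the change without it (horizontal), for interferon-stimulated effectors on the left and mitotic genes on the right, 1 point a gene. The line marks equal changes and colour marks a called difference: 30 of 39 effectors lie below the line with a called difference, and 9 of 37 mitotic genes do. Over all genes tested the difference was called lower for 11.8%.

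Groups of genes differed in how far the change without doxycycline was matched with it. The counts stand against all genes, of which 8.08% differed upward and 11.8% downward. Mitotic genes had a median of -3.46 with doxycycline. A difference in either direction was called for 9 of 37, against 19.9% of all genes, each with the larger fall with doxycycline. With total counts 3 had the larger and 2 the smaller fall. Replication genes had a median of -1.91, and 8 of 40 differed upward (14 with total counts). Interferon-stimulated effectors had a median of 1.83 with doxycycline against 2.80 without it, and 30 of 39 had a smaller change with it (26 with total counts). MX1, for one, rose by 4.79 with doxycycline and by 6.97 without (difference -2.18, edgeR adjusted p = 5.90e-05). CXC chemokines had a median of 2.67, with 3 of 9 differing downward. CXCL8 rose by 5.69 with doxycycline, and its difference was not called (-0.12, edgeR adjusted p = 0.845). For antigen presentation the median was 0.03 with doxycycline and 11 of 18 genes differed downward (7 with total counts). Lysosomal genes had a median of 0.08 against 0.53, with 23 of 45 differing downward (17 with total counts). Collagens had 0.14 against 0.70, with 16 of 27 (12 with total counts). Cytosolic ribosomal proteins fell less with doxycycline (median -0.10, 34 of 76 differing upward, or 51 with total counts). Mitochondrially encoded transcripts went from a median above 0 to -0.92, with 13 of 13 different. ATF4 targets had 18 of 26 differing upward and hypoxia genes 9 of 18. PAPPA had the largest difference of the 24 genes named for their change, rising by 5.17 without doxycycline and by 0.89 with it (difference -4.28, edgeR adjusted p = 5.78e-07). Its mean CPM was 5.96 without and 107 with doxycycline in proliferating cells, and 214 and 199 in senescent cells. The 24 were chosen for large changes without doxycycline, a choice that by itself favours smaller changes with it. The lists were chosen with earlier results of these data known, so the same may hold for their medians and counts.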

How the data were processed

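Poly(A) RNA of 8 libraries was sequenced. The deposited values are raw read counts per gene over 54628 genes. Per the submitters' processing notes, Trimmomatic 0.36, HISAT2 2.1.0, featureCounts 1.6.3 and hg38 were used. No annotation, strand option or other setting is stated in what was used here, so overlapping genes and close paralogs are uncertain.

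Groups follow the labels. All 8 libraries were fitted with edgeR 4.0.16 (robust quasi-likelihood, TMM, filterByExpr, 4 residual degrees of freedom, common biological coefficient of variation 0.0904) in R 4.3.3, two-sided, with Benjamini-Hochberg adjustment over 17155 genes at 0.05. Where a group had no count, bounds take 3 counts over the group. Intervals are 95% and cover counting error only. The members and 88 gene lists were chosen with earlier results of these data known. Alternatives used limma 3.58.1 and DESeq2 1.42.0. On simulated counts the fit recovered 82% of genes changed by 1 and 97% of those changed by 2 on the log2 scale. It made 9 false calls among 16645 genes tested, a number that includes the changed genes. The simulation changed 100 genes by each size, drawn from those with enough counts, and left all others equal. In the data 59.2% of genes were called, so these figures do not give the false calls or the recovery of the comparison above.

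Genes named are the 12 largest rises and falls without overlap and with log2 CPM averaging 3 or more, the 10 largest gains and losses of CPM, genes found in 1 state, and up to 5 called members per list. Other list members were chosen for their roles after their values were seen. Some genes that met these rules are not reported here.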

Additional observations from a re-analysis of the deposited data

Results flagged for a closer look

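The bleomycin change of 3 of the 24 genes named for the size of their change differed by at least 2 on the log2 scale between cells with and without doxycycline, by edgeR's test of that difference. PAPPA, the protease of IGF-binding proteins, had the largest gap: its change was 0.89 with doxycycline and 5.17 without it, a difference of -4.28 (edgeR adjusted p = 5.78e-07). For ANKRD1, a YAP target, the changes were 1.62 and 4.62, a difference of -3.0 (edgeR adjusted p = 9.59e-08). For MX1, an interferon-induced gene, they were 4.79 and 6.97, a difference of -2.18 (edgeR adjusted p = 5.90e-05). The levels behind these differences were unlike. Mean CPM of PAPPA was 5.96 without and 107 with doxycycline in proliferating cells, and 214 and 199 in senescent cells. For ANKRD1 it was 3.38 and 271.5 in proliferating cells, and 83.1 and 837 in senescent cells. For MX1 it was 1.02 and 0.602 in proliferating cells, and 127 and 16.97 in senescent cells. All 3 were chosen for a large rise without doxycycline, which by itself favours a smaller change with it. Doxycycline and the transgene it induces were given together, so their parts in these differences cannot be told apart. Groups of 2 libraries are too small for a test of single outlying libraries.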

How the results depend on the processing

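The counts of called genes without doxycycline, 5108 higher and 5047 lower, stayed within 1.5 times under DESeq2's size factors, total counts alone, a fit of only the 4 libraries compared, DESeq2, limma-voom, a filter at a log2 CPM averaging 1 or more, no filter on low counts, non-robust estimation and the removal of each library in turn. A test against a 1.5-fold change gave 2249 and 2101, and for bleomycin with doxycycline 1860 and 1687 in place of 4600 and 4919. Beyond 2-fold, the filter at 1 gave 1018 and 1134 in place of 2075 and 1764, since fewer genes were tested. The difference of the changes with and without doxycycline, 1386 higher and 2021 lower, became 187 and 330 against the 1.5-fold change and 2639 and 1105 with total counts alone. Leaving out each library gave 704 to 1563 higher and 1148 to 2340 lower. Genes found in senescent cells alone, 26, ranged from 33 to 49 and those found in proliferating cells alone, 2, from 3 to 9, since a smaller group meets the rule more easily. A model with the replicate number as a block gave 5187 and 5157 calls, and 1594 and 2277 for the difference. The numbers do not pair libraries across groups by any statement of the labels, and residuals of libraries with the same number correlated at -0.0121 to 0.159.

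Of 1550 called genes that were followed through the alternatives, 679 lost their call under at least 1 of them, 664 of these against the 1.5-fold change, 235 lost it when a library was left out, and 0 changed direction. Of the 44 genes named for the size of their change or of their gain or loss, 7 lost it, each against the 1.5-fold change: ND4, VIM, ACTG1, EEF1A1, FLNA, ENO1 and CAV1. With 2 libraries a group the spread rests on all 4 groups, and a library left out leaves a lone sample that is assumed to vary like the others. At these depths 3 counts over a group amount to 0.0371 CPM in proliferating and 0.0437 CPM in senescent cells, so genes under that level could not be told from absent ones.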

Other observations

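Some gene groups were left out of the account above. Heat shock proteins were higher in 9 of 27 and lower in 8, near the 29.8% and 29.4% of all genes tested, or 14 lower with total counts. HSPE1, the mitochondrial co-chaperonin, fell from 47.01 and 46.4 CPM in proliferating cells to 14.5 and 15.05 CPM in senescent cells (log2 -1.66), HSPB1, a small heat shock protein, fell from 531 and 541 to 235 and 216 CPM, and the cytosolic chaperone HSP90AA1 was not called (log2 -0.05). Aminoacyl-tRNA synthetases were higher in 8 of 21 and lower in 6, against the same 29.8% and 29.4% of all genes. They had 4 and 5 higher without proliferating replicates 1 and 2, 3 higher with total counts, and a median that flipped with the scaling. EPRS1 of that list rose from 179.99 and 180.2 to 283 and 304 CPM. Metallothioneins, which bind zinc and copper, were higher in 3 of 4 and lower in 0, or 1 lower without senescent replicate 1 or with total counts. MT1X rose from 8.57 and 8.27 to 23.7 and 16.8 CPM, and MT3 had no count in proliferating cells and was at least 18.5-fold higher.

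Small nucleolar RNAs, which are cut from introns and guide the modification of ribosomal RNA, were lower in 24 of 95 tested (25.3%) and higher in 3 (3.16%), against 29.4% and 29.8% of all genes. A poly(A) library captures few of these transcripts. Zinc finger genes whose symbols begin with ZNF were higher in 156 of 506 (30.8%) and lower in 96 (19%), against the same 29.8% and 29.4%, with a median log2 change of 0.15. Of pseudogenes 230 of 1352 were higher (17%) and 268 lower (19.8%), and reads of a pseudogene may belong to its parent.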
